A study of Mus musculus with 27 samples.

Results

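The mRNAs described are 41 genes of hepatic glucose handling: glucose uptake, glycolysis, gluconeogenesis, glycogen, the kinases that switch off pyruvate dehydrogenase, the pentose phosphate pathway, fructose entry and insulin signalling. They were taken by gene symbol from a deposited table of 54532 genes, and 39 of them were expressed enough to be tested. The hexokinases Hk1 and Hk2 were the genes that were not. The data are RNA-seq of liver tissue from wild-type C57/BL6J mice, in 27 libraries. In 70% partial hepatectomy (PHx) most of the liver is removed and the remnant regrows. PHx48_ETO is 48 h after PHx with etomoxir (n = 4), PHx48 is 48 h after PHx without it (n = 7), PHx24_ETO is 24 h after PHx with etomoxir (n = 4), PHx24 is 24 h after PHx without it (n = 7), and sham is a sham operation (n = 5). Etomoxir, an irreversible inhibitor of carnitine palmitoyltransferase 1 and so of mitochondrial oxidation of long-chain fatty acids, was injected intraperitoneally at 12.5 mg/kg 4 h before resection, with another dose 24 h after it in the 48 h mice. The sham libraries carry no time point in the sample labels, although the series text names a 0 h time. Whether mice without etomoxir received a vehicle, and whether each library was a separate animal, is not given in the labels. The p-values below therefore describe variation among libraries, which may be partly technical.

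The liver stores glucose as glycogen after a meal and releases glucose between meals, from glycogen and by making it anew from lactate, glycerol and amino acids. Glycolysis runs from glucose to pyruvate, and gluconeogenesis bypasses its irreversible steps with its own enzymes, among them pyruvate carboxylase, phosphoenolpyruvate carboxykinase, fructose bisphosphatase and glucose-6-phosphatase. The pentose phosphate pathway branches off at glucose 6-phosphate and supplies NADPH and ribose for nucleotides. After hepatectomy a small remnant has to hold blood glucose while its cells prepare to divide.

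The promoters of 3 members whose mRNA levels moved in different ways are shown, because sugar- and hormone-responsive motifs are known in this gene family. The sequences are from the RefSeq promoter table on GRCm38.p6, upstream of the RefSeq start and ending before the first UTR base annotated in GENCODE M21, and each is on the + strand, written 5′ to 3′. Pklr is at chr3:89136373-89136571, Ldha at chr7:46845554-46845803 and Pck1 at chr2:173152823-173153047. The Pklr and Ldha windows lie inside the genes as the files annotate them, which start further upstream. Capitals mark a carbohydrate response element, the paired E-box-like site bound by ChREBP, in Pklr, 2 copies of the E-box CACGTG and a cAMP response element (TNACGTCA) in Ldha, and a cAMP response element in Pck1.
Pklr: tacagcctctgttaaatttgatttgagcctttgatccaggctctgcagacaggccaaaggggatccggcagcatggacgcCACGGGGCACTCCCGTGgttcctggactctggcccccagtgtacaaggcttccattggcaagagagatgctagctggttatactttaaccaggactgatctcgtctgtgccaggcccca
Ldha: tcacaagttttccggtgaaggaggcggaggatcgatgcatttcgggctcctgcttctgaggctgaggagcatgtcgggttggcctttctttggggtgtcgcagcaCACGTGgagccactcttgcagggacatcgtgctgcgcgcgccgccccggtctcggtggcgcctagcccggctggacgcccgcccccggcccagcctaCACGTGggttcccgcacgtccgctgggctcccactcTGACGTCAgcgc
Pck1: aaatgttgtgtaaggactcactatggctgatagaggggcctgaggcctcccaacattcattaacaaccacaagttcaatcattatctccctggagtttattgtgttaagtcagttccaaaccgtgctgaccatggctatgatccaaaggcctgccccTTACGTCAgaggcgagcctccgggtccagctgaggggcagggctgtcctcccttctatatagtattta
Both strands of the 300-base promoter windows were searched. Gys2 and Ppp1r3b had no promoter in the table and so were not searched. Of 32851 promoters in the table, 0.557% held the carbohydrate response element, 7.15% the E-box and 2.93% the cAMP letters. Of the 39 members with a promoter in the table, 2 held the carbohydrate response element (Pklr and Gbe1), 8 the E-box (Irs1, Irs2, Khk, Ldha, Pcx, Pdk2, Pfkfb3 and Ppp1r3c) and 2 the cAMP letters (Ldha and Pck1). These members have 58 promoters in the table, of which 3.45%, 13.8% and 3.45% held the carbohydrate response element, the E-box and the cAMP letters. The FOXO letters GTAAACA (3.65% of promoters) and the ATF4 composite letters TGATGNAAT (0.965%) were in no member's window. Such matches describe the letters in these windows only, and the motifs were chosen after the windows had been read.

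Libraries held 14903757 to 18446372 counts. All 10 hepatocyte marker genes were at 1 FPKM or more in every library. Their summed level was 37824 to 49626 FPKM in PHx48_ETO, 29964 to 42847 in PHx48, 28634 to 35341 in PHx24_ETO, 25804 to 33541 in PHx24 and 32219 to 68460 in sham. The summed level of 6 sinusoidal endothelial markers was 13.4 to 25.9 FPKM in PHx48 and 20.3 to 26.2 in PHx24, against 27.8 to 36.2 in sham. In whole tissue, fewer cells of a type and less RNA per cell cannot be told apart. Transcripts of skeletal muscle stood out in 5 libraries. Of 12 skeletal muscle genes, 11 reached 1 FPKM in sham 1 (summed level 5233 FPKM), PHx24 1 (2012), PHx48 3 (618) and sham 2 (80.6), and 10 did in PHx48_ETO 4 (93.2), against at most 3 genes and 12.2 FPKM in any other library. Exocrine pancreas genes summed to 1039 FPKM in sham 2 (10 of 10 genes at 1 FPKM or more) and 166.5 in PHx48 3 (9 of 10). A sixth library, PHx24_ETO 2, lay outside the range of all other libraries for 19 of the 39 members, and its adipocyte markers summed to 228 FPKM, against 14.4 to 20.9 in the other PHx24_ETO libraries. Only 2 of the 8 adipocyte genes reached 1 FPKM there, while 7 did in PHx48 3 (164 FPKM), sham 1 (218) and sham 3 (45.5). Results that rest on these libraries are given with and without them, where "without 6 libraries" leaves out sham 1, sham 2, PHx24 1, PHx48 3, PHx24_ETO 2 and PHx48_ETO 4. PHx24 2 and PHx24 3 stayed in those fits. In PHx24 2 neutrophil markers summed to 80.7 FPKM (3 of 8 genes at 1 FPKM or more), against at most 11.9 in any other library. In PHx24 3, 7 of 10 exocrine pancreas genes reached 1 FPKM (summed level 36.2 FPKM).

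At 48 h after resection, liver pyruvate kinase (Pklr), ketohexokinase (Khk), the pyruvate dehydrogenase kinases Pdk1 and Pdk2, glycogen synthase (Gys2) and the glucose-6-phosphate transporter (Slc37a4) were lower than in sham, while lactate dehydrogenase A (Ldha), the mitochondrial carboxykinase Pck2 and the NADPH-making enzyme Pgd were higher. At 24 h, Pklr, Gys2, glycogen phosphorylase (Pygl), Pdk1 and Pdk2 were already lower, and Pfkfb3, the glucose transporter Slc2a1 and Ldha were higher. Of the 39 members, 6 rose and 12 fell at 48 h against sham (46.2%, where 36.5% of all genes tested changed, 19.5% higher and 17% lower). An unadjusted p under 0.05 was reached by 24 members at 48 h, beside 45.5% of all genes. At 24 h, 8 rose and 9 fell (43.6%, where 35% of all genes changed, 19.1% higher and 15.8% lower), and 20 reached an unadjusted p under 0.05, beside 43.9% of all genes. The members' median log2 fold change was -0.19 at 48 h and -0.014 at 24 h, beside 0.009 and 0.008 over all genes tested. Without 6 libraries the counts at 48 h were 9 higher and 12 lower, where 33.8% of all genes changed (17.1% higher, 16.8% lower). At 24 h they were 10 higher and 10 lower, where 33.5% of all genes changed (17.5% higher, 16.1% lower). Scaled by total counts alone, 10 members were higher and 10 lower at 48 h, and 10 higher and 7 lower at 24 h. PHx48 and PHx24 were both set against the same sham libraries, so their values are given side by side.

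**Figure D1:**
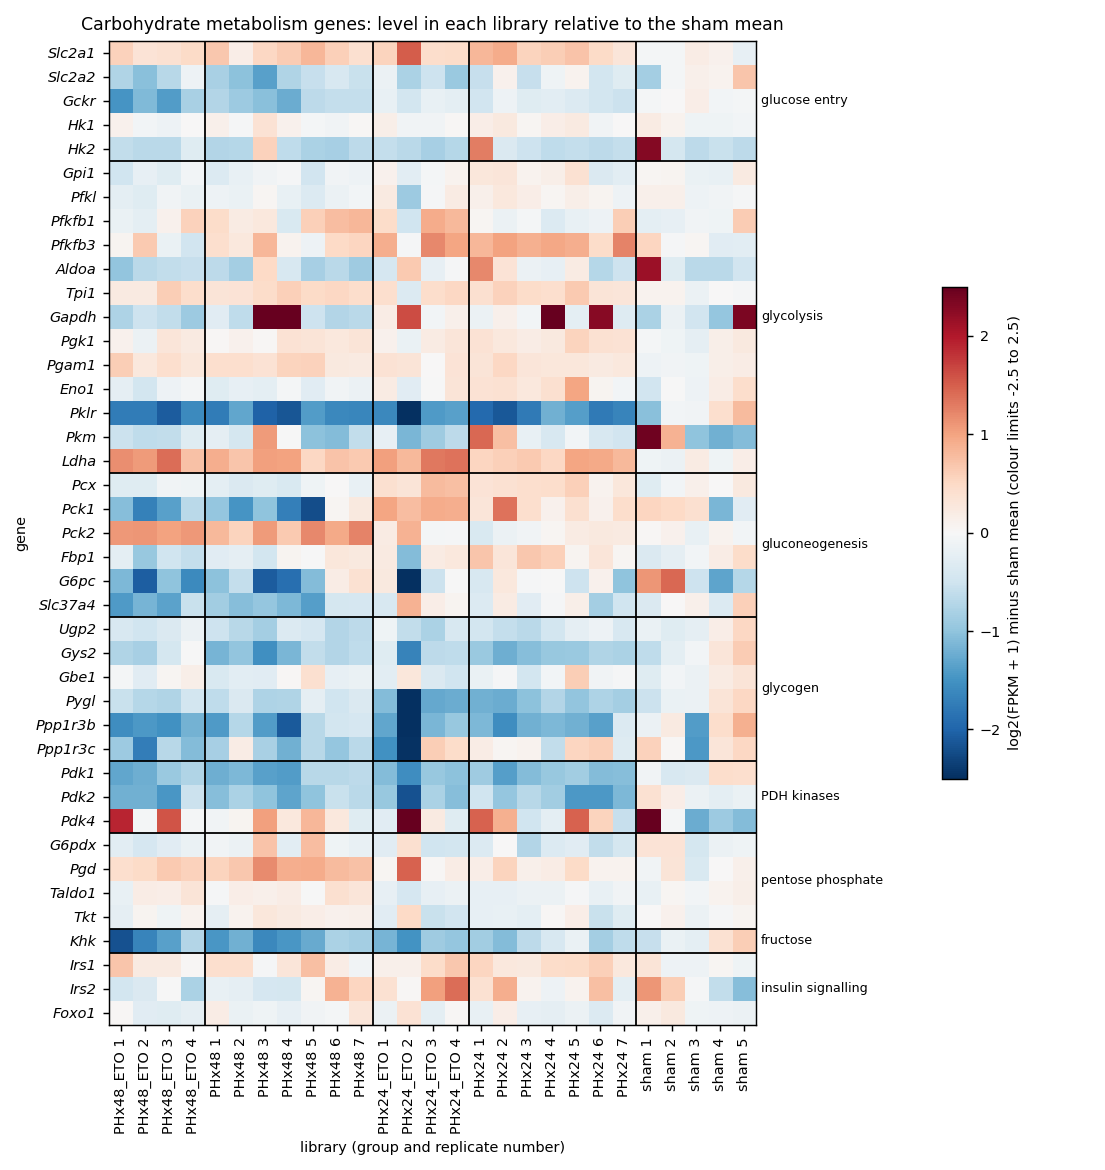
Level of each of the 41 genes (rows, grouped by role) in each of the 27 libraries (columns, by group and replicate number), as log2(FPKM + 1) minus the mean of the 5 sham libraries. Pklr, Gys2, Pygl, Pdk1, Pdk2 and Khk are blue across the resected groups, Ldha is red, Pck2 is red in both 48 h groups, and single dark cells in sham 1 (Hk2, Aldoa, Pkm, Pdk4) and PHx24_ETO 2 (Pygl, Ppp1r3b, Pdk4) stand out.

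**Figure D2:**
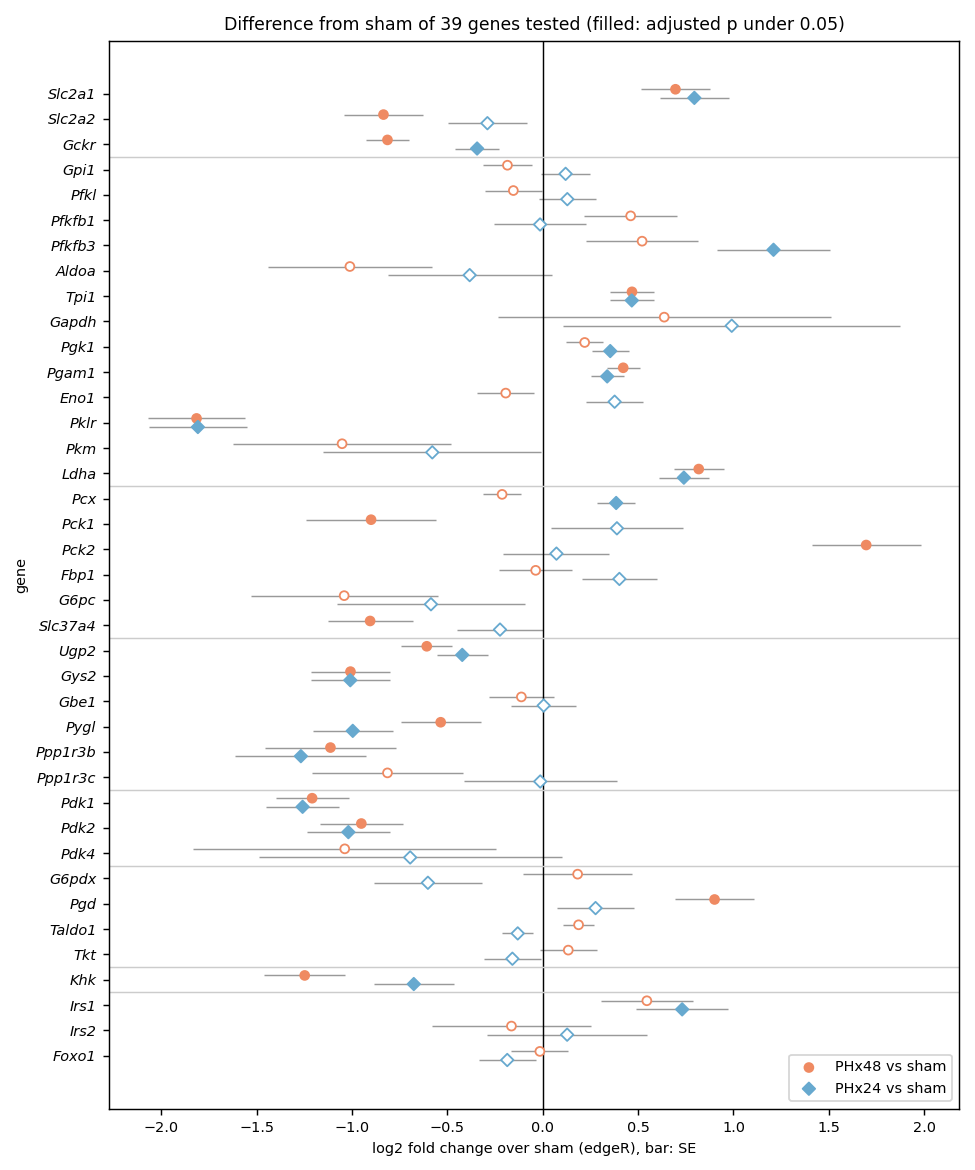
The log2 fold change against sham (horizontal axis) of the 39 genes tested, with circles for PHx48, diamonds for PHx24 and bars for the SE; filled symbols passed an edgeR adjusted p of 0.05. Pklr lies furthest left at -1.81 in PHx48 and -1.81 in PHx24, and Pck2 furthest right at 1.70 in PHx48.

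Genes of glucose entry moved in opposite directions. Slc2a1, which encodes the widely expressed glucose transporter GLUT1 (ENSMUSG00000028645, GRCm38 chromosome 4, 119108711 to 119137983), was between 4.12 and 7.18 FPKM with a median of 5.93 in PHx48, between 4.66 and 7.66 FPKM with a median of 6.0 in PHx24, and 3.4, 3.44, 4.23, 3.94 and 2.98 FPKM in the sham libraries. Every PHx24 library lay above every sham library, and the lowest PHx48 library was within the sham range. The rise was 1.62-fold at 48 h (log2 fold change 0.70, SE 0.18, edgeR adjusted p = 0.00338) and 1.74-fold at 24 h (log2 fold change 0.80, SE 0.18, edgeR adjusted p = 0.00118). Slc2a2, the GLUT2 transporter of hepatocytes, averaged 20.9 ± 4.59 FPKM in PHx48 (SD, n = 7) and 30.4 ± 6.54 in PHx24 (n = 7), against 37.9 ± 13.9 in sham (n = 5). It fell at 48 h (log2 fold change -0.83, SE 0.21, edgeR adjusted p = 0.0025), while its difference at 24 h did not pass (-0.29, adjusted p = 0.296). Without 6 libraries the 24 h fall passed as well, at -0.50 (adjusted p = 0.0415). With only sham 1, sham 2, PHx24 1 and PHx48 3 left out it was also -0.50 but did not pass (edgeR adjusted p = 0.0765). Gckr encodes the protein that holds the liver's main glucose-phosphorylating enzyme inactive in the nucleus (ENSMUSG00000059434, GRCm38 chromosome 5, 31297443 to 31327314). It was between 24 and 38 FPKM with a median of 34.1 in PHx48, between 39.3 and 52.4 FPKM with a median of 45.3 in PHx24, and 55.9, 58, 64.5, 54.9 and 55.5 FPKM in sham. No resected library reached the sham range, and the fall was larger at 48 h (log2 fold change -0.81, SE 0.12, edgeR adjusted p = 4.46e-06) than at 24 h (log2 fold change -0.34, SE 0.12, edgeR adjusted p = 0.0217), and PHx48 was also lower than PHx24 (-0.47, adjusted p = 0.00399). The 24 h call was lost when libraries were scaled by total counts (-0.24, edgeR adjusted p = 0.0957) and without sham 1, sham 2, PHx24 1 and PHx48 3 (-0.34, adjusted p = 0.0883). Hk1 stayed between 0.281 and 0.799 FPKM in every library, and Hk2, the hexokinase of muscle and fat, was 8.26 FPKM in sham 1, 3.57 in PHx24 1 and 1.83 in PHx48 3, and at most 0.544 in all others.

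The largest fold change among the glycolytic members was that of Pklr, which acts at the pathway's end. Pklr encodes the pyruvate kinase of liver and red cells (ENSMUSG00000041237, GRCm38 chromosome 3, 89136142 to 89146784), and its upstream window shown above holds the carbohydrate response element. It read between 11.8 and 22 FPKM with a median of 17.2 in PHx48, between 12 and 23.4 FPKM with a median of 15.6 in PHx24, and 26.1, 52.7, 52.2, 74.1 and 96.1 FPKM in sham. The highest resected library, at 23.4, was below the lowest sham library, with sham 1 the lowest and sham 5 the highest of the sham group. The fall was to 0.284 of sham at 48 h (log2 fold change -1.81, SE 0.26, edgeR adjusted p = 4.48e-06) and to 0.286 at 24 h (log2 fold change -1.81, SE 0.26, edgeR adjusted p = 6.94e-06), and it was -2.07 and -2.07 without 6 libraries. Ldha, the lactate dehydrogenase subunit that favours lactate formation (ENSMUSG00000063229, GRCm38 chromosome 7, 46841475 to 46855627), was between 378 and 535 FPKM with a median of 431 in PHx48, between 374 and 517 FPKM with a median of 414 in PHx24, and 244, 237, 300.3, 243 and 293 FPKM in sham. All resected libraries were above all sham libraries. The rise was 1.76-fold at 48 h (log2 fold change 0.82, SE 0.13, edgeR adjusted p = 2.29e-05) and 1.67-fold at 24 h (log2 fold change 0.74, SE 0.13, edgeR adjusted p = 8.89e-05). Pfkfb3, which makes and breaks down fructose 2,6-bisphosphate, the activator of phosphofructokinase, was low in abundance (ENSMUSG00000026773, GRCm38 chromosome 2, 11471433 to 11554077). It was between 1.51 and 3.83 FPKM with a median of 2.64 in PHx48, between 2.76 and 5.43 FPKM with a median of 4.1 in PHx24, and 2.95, 1.69, 1.82, 1.23 and 1.26 FPKM in sham. Every PHx24 library was above sham 2 to sham 5, and only PHx24 6 was below sham 1, the library with the most muscle RNA. Its rise passed at 24 h (2.31-fold, log2 fold change 1.21, SE 0.30, edgeR adjusted p = 0.00255) and not at 48 h (0.52, adjusted p = 0.17). Without 6 libraries both passed, at 0.72 (adjusted p = 0.0343) at 48 h and 1.56 (adjusted p = 0.000147) at 24 h. With only sham 1, sham 2, PHx24 1 and PHx48 3 left out, the 48 h difference was also 0.72 but did not pass (edgeR adjusted p = 0.119). The 24 h rise passed there too (1.56, adjusted p = 0.00227).

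Of the 13 glycolytic members, 3 rose and 1 fell at 48 h (30.8%, beside 36.5% of all genes), and 5 rose and 1 fell at 24 h (46.2%, beside 35%). Besides Ldha, those that rose at both times were the triose phosphate isomerase Tpi1 (0.47 at 48 h, 0.47 at 24 h), whose reads can include the overlapping Spsb2, and the phosphoglycerate mutase Pgam1 (0.42 and 0.34). Their edgeR adjusted p were 0.00203 and 0.00226 for Tpi1 and 0.000455 and 0.00369 for Pgam1. The phosphoglycerate kinase Pgk1 rose at 24 h (log2 fold change 0.35, SE 0.097, edgeR adjusted p = 0.00571). Without 6 libraries the 24 h calls of Pgk1 (0.29, adjusted p = 0.0545) and Pgam1 (0.26, adjusted p = 0.0844) were lost. The hexose isomerase Gpi1, the liver phosphofructokinase Pfkl, the bifunctional enzyme Pfkfb1 and the enolase Eno1 had log2 fold changes between -0.19 and 0.46 at 48 h and between -0.014 and 0.38 at 24 h, none past the threshold. Eno1 at 24 h (edgeR adjusted p = 0.0514) was called when PHx24 6, PHx24 7, PHx24_ETO 2 or sham 5 was left out. Under total counts Eno1 at 24 h (0.50, adjusted p = 0.00699) was called higher. So were Pfkfb1 (0.69, adjusted p = 0.0104) and Pgk1 (0.45, adjusted p = 0.000138) at 48 h. Reads of Eno1 can be shared with its near copy Eno1b. Gapdh was 2.15, 2.78, 2.5 and 1.89 FPKM in PHx48_ETO, between 2.24 and 32.5 FPKM with a median of 2.78 in PHx48, 5.11, 15.6, 4.18 and 4.91 in PHx24_ETO, between 3.32 and 55.3 FPKM with a median of 4.14 in PHx24 and 2.13, 3.91, 2.89, 1.77 and 26.6 in sham. It was above 15 FPKM in 6 libraries spread over 4 groups and at most 5.11 in the rest, and since near-identical Gapdh pseudogenes exist, its values are uncertain.

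**Figure D3:**
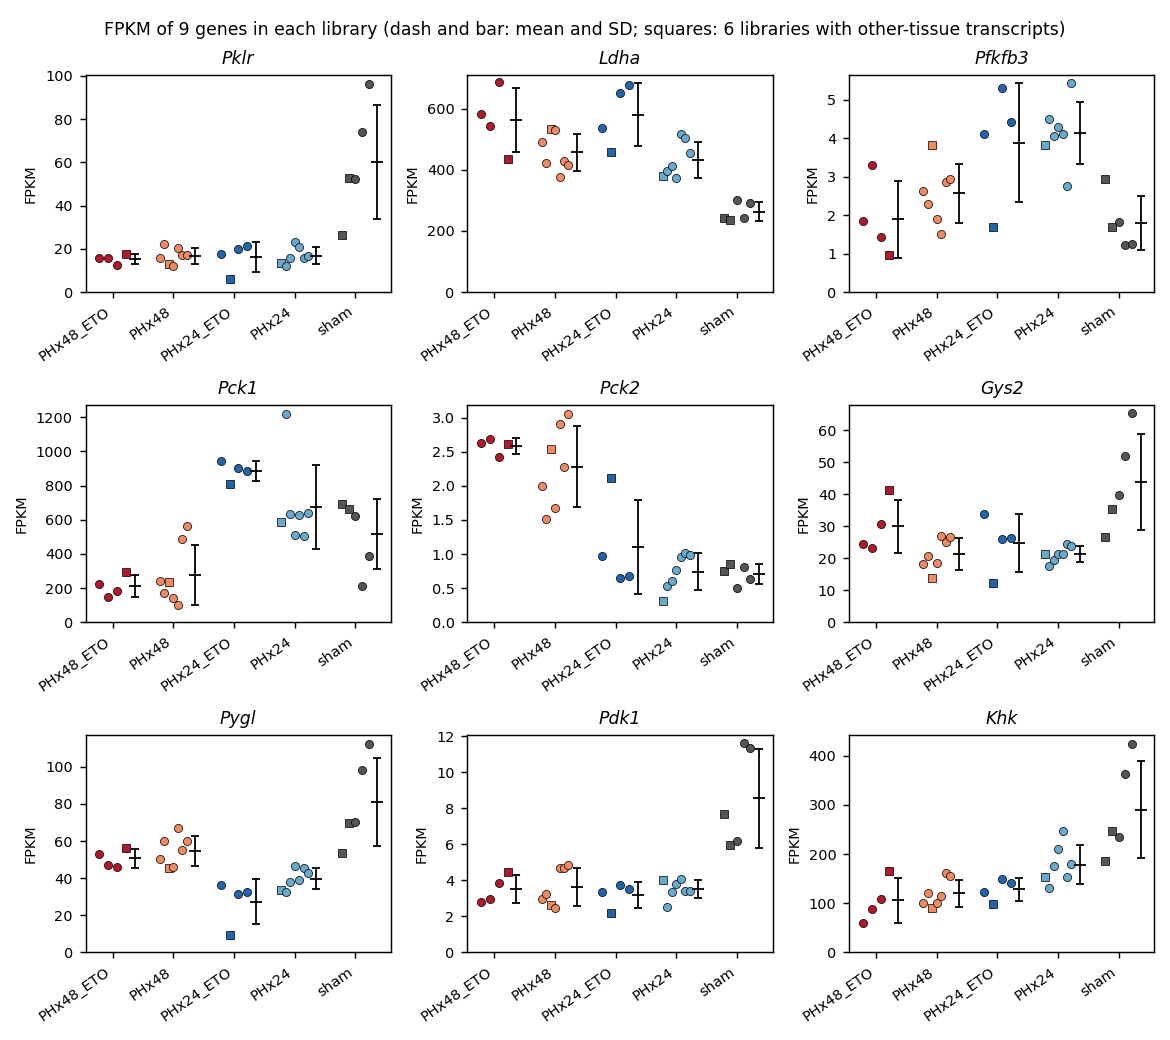
FPKM (vertical axis) of 9 genes in each library, by group, with the mean and SD beside the points; squares are the 6 libraries set apart. Every resected library lies below every sham library for Pklr and Pdk1 and above every sham library for Ldha, and Pck2 is raised in the 48 h groups.

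The muscle-type isoforms had their 2 highest values in sham 1 and PHx24 1, the libraries richest in muscle transcripts, whose part in the result was not tested. Aldoa, the aldolase of muscle and most tissues, was between 32.2 and 86.5 FPKM with a median of 37.6 in PHx48, between 36.7 and 142 FPKM with a median of 54.9 in PHx24, and 269, 48.9, 37.8, 37.4 and 43.1 FPKM in sham, where sham 1 alone was above 50. Pkm, the pyruvate kinase of muscle and dividing cells, was between 3.2 and 17.6 FPKM with a median of 5.62 in PHx48, between 5.4 and 23.3 FPKM with a median of 6.81 in PHx24, and 46.9, 15.4, 3.42, 2.87 and 3.22 FPKM in sham. With all libraries neither passed (Aldoa -1.01 at 48 h and -0.38 at 24 h, adjusted p = 0.0665 and 0.525; Pkm -1.05 and -0.58, adjusted p = 0.153 and 0.462). Leaving out sham 1 alone turned the signs, to 0.09 at 48 h and 0.71 at 24 h for Aldoa and 0.18 and 0.65 for Pkm, with no call. Aldoa was called lower at 48 h when any of PHx48 3 or sham 2, 3, 4 or 5 was left out (-1.29 without PHx48 3, adjusted p = 0.0201), and Pkm when PHx48 3 was (-1.49, adjusted p = 0.0408). Without 6 libraries the signs at 24 h turned and both were called higher, Aldoa at 0.51 (adjusted p = 0.038) and Pkm at 1.27 (adjusted p = 0.00373). At 48 h they were -0.088 (adjusted p = 0.748) and 0.75 (adjusted p = 0.0644). With only sham 1, sham 2, PHx24 1 and PHx48 3 left out, Aldoa at 24 h was also 0.51 but was not called (edgeR adjusted p = 0.0857). In those fits sham has 3 libraries.

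**Figure D4:**
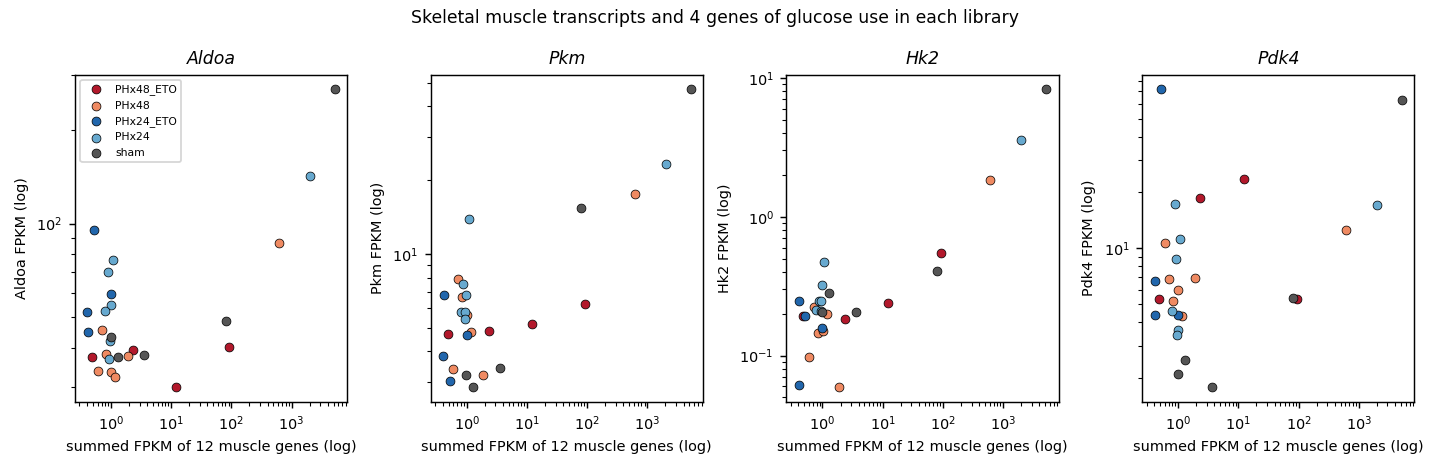
FPKM of Aldoa, Pkm, Hk2 and Pdk4 (vertical, log scale) against the summed FPKM of 12 skeletal muscle genes (horizontal, log scale) in each of the 27 libraries, coloured by group. Sham 1, PHx24 1 and PHx48 3, at 5233, 2012 and 618 on the horizontal axis, are the 3 highest libraries for Pkm and Hk2, and PHx24_ETO 2 is highest for Pdk4 at 71.7 FPKM with a muscle sum of 0.519.

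Of the 6 gluconeogenic members, 1 rose and 2 fell at 48 h (50%, beside 36.5% of all genes), and 1 rose at 24 h (16.7%, beside 35%). Pck1, the cytosolic phosphoenolpyruvate carboxykinase (ENSMUSG00000027513, GRCm38 chromosome 2, 173153048 to 173159273), was between 102 and 561 FPKM with a median of 235 in PHx48, between 508 and 1218 FPKM with a median of 626 in PHx24, and 691, 665, 622, 214 and 390.3 FPKM in sham. PHx48 libraries reached down to 102 and PHx24 libraries up to 1218, and both overlapped sham. Against sham the 24 h difference did not pass (0.39, adjusted p = 0.414). The 48 h fall passed narrowly (log2 fold change -0.90, SE 0.34, edgeR adjusted p = 0.0411). That 48 h call was lost when any of PHx48 1, 2, 3, 4 or 5 or sham 1, 2 or 3 was left out (log2 fold change -0.89 to -0.75, adjusted p = 0.0582 to 0.104), and without 6 libraries (-0.52, adjusted p = 0.369). It was also lost under total counts (-0.74, edgeR adjusted p = 0.0836). Pck2, the mitochondrial carboxykinase, was far less abundant (ENSMUSG00000040618, GRCm38 chromosome 14, 55540266 to 55551242). It was between 1.51 and 3.05 FPKM with a median of 2.28 in PHx48, between 0.31 and 1.02 FPKM with a median of 0.762 in PHx24, and 0.749, 0.848, 0.502, 0.81 and 0.635 FPKM in sham. All PHx48 libraries were above all PHx24 and sham libraries, with a 3.24-fold rise over sham (log2 fold change 1.70, SE 0.29, edgeR adjusted p = 4.58e-05) and no call at 24 h (0.072, adjusted p = 0.867).

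Pcx, pyruvate carboxylase, which feeds the pathway from pyruvate (ENSMUSG00000024892, GRCm38 chromosome 19, 4510472 to 4621752), was between 77.8 and 103 FPKM with a median of 85.4 in PHx48, between 108 and 155 FPKM with a median of 133 in PHx24, and 82.3, 97.7, 111, 102 and 121 FPKM in sham. It rose at 24 h (log2 fold change 0.39, SE 0.10, edgeR adjusted p = 0.00399), a call lost without 6 libraries (0.27, adjusted p = 0.0888), and was -0.21 at 48 h (adjusted p = 0.0958; -0.32, adjusted p = 0.0376 without 6 libraries). Slc37a4, which carries glucose 6-phosphate into the endoplasmic reticulum, averaged 26.9 ± 7.03 FPKM in PHx48 (SD, n = 7) and 43.1 ± 11 in PHx24 (n = 7), against 51.2 ± 15.1 in sham (n = 5), and fell at 48 h (log2 fold change -0.91, SE 0.22, edgeR adjusted p = 0.0023). No PHx48 library reached the sham range. G6pc, the catalytic subunit of glucose-6-phosphatase, was between 32.5 and 183 FPKM with a median of 68.3 in PHx48, between 69.2 and 168 FPKM with a median of 137 in PHx24, and 304, 381, 98.3, 55.3 and 85.1 FPKM in sham. The highest sham values were in sham 2 and sham 1, and the differences did not pass (-1.04 at 48 h and -0.59 at 24 h, adjusted p = 0.0987 and 0.379). Without 6 libraries their sign was positive (0.35, adjusted p = 0.526 and 0.69, adjusted p = 0.19). Fbp1, fructose bisphosphatase, was 348 to 587 FPKM in PHx48, 493.2 to 776 in PHx24 and 372 to 658 in sham, with log2 fold changes of -0.037 and 0.40 that did not pass. Its 24 h difference was called higher under total counts (0.53, edgeR adjusted p = 0.0223) and without PHx24_ETO 2 (adjusted p = 0.0391). Without 6 libraries it was 0.16 (adjusted p = 0.504).

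Of the 6 glycogen members, 4 fell at each time and none rose, where 17% of all genes were lower at 48 h and 15.8% at 24 h. Gys2, liver glycogen synthase (ENSMUSG00000030244, GRCm38 chromosome 6, 142422613 to 142473109), was between 13.8 and 27.1 FPKM with a median of 20.8 in PHx48, between 17.5 and 24.5 FPKM with a median of 21.4 in PHx24, and 26.8, 35.4, 39.8, 52 and 65.4 FPKM in sham. All PHx24 libraries were below all sham libraries, and only PHx48 5, at 27.1, was above the lowest sham library, at 26.8. It fell to 0.497 of sham at both times (at 48 h log2 fold change -1.01, SE 0.21, edgeR adjusted p = 0.000416; at 24 h log2 fold change -1.01, SE 0.21, edgeR adjusted p = 0.000466). Pygl, the liver phosphorylase that releases glucose from glycogen (ENSMUSG00000021069, GRCm38 chromosome 12, 70190811 to 70231488), was between 45.5 and 66.8 FPKM with a median of 55.2 in PHx48, between 32.6 and 46.7 FPKM with a median of 39 in PHx24, and 53.7, 69.7, 70.3, 98.3 and 112 FPKM in sham. The 24 h libraries were below all sham libraries, and the 48 h libraries overlapped both. It fell at 24 h (log2 fold change -0.996, SE 0.21, edgeR adjusted p = 0.000579) and at 48 h (log2 fold change -0.54, SE 0.21, edgeR adjusted p = 0.0471), but the 48 h call was lost on leaving out any of 19 of the 27 libraries (log2 fold change -0.58 to -0.42, adjusted p up to 0.141) and under total counts (-0.29, adjusted p = 0.217). Ppp1r3b, a subunit that brings protein phosphatase 1 to glycogen and activates the synthase (ENSMUSG00000046794, GRCm38 chromosome 8, 35375739 to 35388139), was between 9.21 and 31.6 FPKM with a median of 25.7 in PHx48, between 13.9 and 33.7 FPKM with a median of 18.1 in PHx24, and 38.4, 49.9, 15.7, 58.3 and 79.4 FPKM in sham. Sham 3, at 15.7, lay among the resected libraries. It fell to 0.463 of sham at 48 h (log2 fold change -1.11, SE 0.34, edgeR adjusted p = 0.0128) and to 0.415 at 24 h (log2 fold change -1.27, SE 0.34, edgeR adjusted p = 0.00544). The 48 h call was lost without sham 5 (-0.89, adjusted p = 0.0543). It was also lost with only sham 1, sham 2, PHx24 1 and PHx48 3 left out (-1.13, edgeR adjusted p = 0.0532), but not without 6 libraries (-1.13, adjusted p = 0.0195). Ugp2, which makes the UDP-glucose that glycogen synthase uses, fell by less (-0.61 at 48 h, adjusted p = 0.000785; -0.42 at 24 h, adjusted p = 0.0153). Its 24 h call was lost without sham 5 (-0.30, adjusted p = 0.0688) and under total counts (-0.30, adjusted p = 0.0746). The branching enzyme Gbe1 (-0.11 and 0.005) and the glycogen-targeting subunit Ppp1r3c (-0.81 and -0.013) did not pass at 48 h or 24 h. Sham 5 was the highest of all 27 libraries for Gys2, Pygl, Ppp1r3b, Ugp2, Pklr and Khk.

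Pyruvate dehydrogenase kinases phosphorylate pyruvate dehydrogenase and so close the entry of pyruvate into the citric acid cycle. Pdk1 (ENSMUSG00000006494, GRCm38 chromosome 2, 71873224 to 71903858) was between 2.5 and 4.87 FPKM with a median of 3.26 in PHx48, between 2.55 and 4.06 FPKM with a median of 3.41 in PHx24, and 7.67, 5.98, 6.19, 11.6 and 11.4 FPKM in sham. Pdk2 (ENSMUSG00000038967, GRCm38 chromosome 11, 95026258 to 95041354) was between 11.8 and 20.6 FPKM with a median of 14.9 in PHx48, between 10.8 and 21.4 FPKM with a median of 15.3 in PHx24, and 40.2, 34.7, 27.7, 26 and 27.5 FPKM in sham. For both genes every resected library was below every sham library. Pdk1 fell to 0.433 of sham at 48 h (log2 fold change -1.21, SE 0.19, edgeR adjusted p = 2.07e-05) and to 0.418 at 24 h (log2 fold change -1.26, SE 0.19, edgeR adjusted p = 1.65e-05), and Pdk2 fell too (log2 fold change -0.95, SE 0.22, edgeR adjusted p = 0.00129 at 48 h; log2 fold change -1.02, SE 0.22, edgeR adjusted p = 0.000744 at 24 h). Pdk4, the isoform induced by fasting, was 23.7, 5.36, 18.6 and 5.33 FPKM in PHx48_ETO, between 4.31 and 12.5 FPKM with a median of 6.88 in PHx48, 4.39, 71.7, 6.67 and 4.36 in PHx24_ETO, between 3.43 and 17.4 FPKM with a median of 8.74 in PHx24 and 62.6, 5.38, 1.8, 2.5 and 2.11 in sham. Sham 1, the library richest in muscle RNA, and PHx24_ETO 2 were far above the rest, and the other sham libraries were at 5.38 or less. With all libraries its difference from sham was -1.04 at 48 h and -0.69 at 24 h (adjusted p = 0.325 and 0.533), which did not pass. Leaving out sham 1 alone turned it to 1.35 and 1.68, with no call. Without 6 libraries it was 1.65 (adjusted p = 0.0159) and 1.96 (adjusted p = 0.00596) and was called higher. With only sham 1, sham 2, PHx24 1 and PHx48 3 left out, neither difference was called (edgeR adjusted p = 0.137 at 48 h and 0.0817 at 24 h). The other 3 sham libraries were at 1.8 to 2.5 FPKM, below every resected library, the lowest of which was 3.43.

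In the pentose phosphate pathway 1 of 4 members rose at 48 h, beside 36.5% of all genes called. None was called at 24 h by edgeR, beside 35%, where 1 had an unadjusted p under 0.05 (G6pdx) and DESeq2 and both limma fits also called none. Pgd, 6-phosphogluconate dehydrogenase, which makes NADPH (ENSMUSG00000028961, GRCm38 chromosome 4, 149149991 to 149166771), was between 13.2 and 20.8 FPKM with a median of 15.6 in PHx48, between 9.25 and 13.1 FPKM with a median of 9.82 in PHx24, and 8.09, 11, 6.37, 8.73 and 9.56 FPKM in sham. All PHx48 libraries were above all sham libraries (1.87-fold, log2 fold change 0.90, SE 0.21, edgeR adjusted p = 0.00119). The 24 h difference was 0.28 (edgeR adjusted p = 0.305), and 0.39 without 6 libraries (adjusted p = 0.0299). With only sham 1, sham 2, PHx24 1 and PHx48 3 left out it was also 0.39 but did not pass (adjusted p = 0.262). G6pdx, glucose-6-phosphate dehydrogenase, which opens the pathway (ENSMUSG00000031400, GRCm38 chromosome X, 74409483 to 74429194), was between 1.84 and 4.78 FPKM with a median of 2.16 in PHx48, between 1.04 and 2.42 FPKM with a median of 1.69 in PHx24, and 3.32, 3.31, 1.52, 2.05 and 2.13 FPKM in sham. The groups overlapped and neither difference passed (0.18 at 48 h and -0.60 at 24 h), and reads from the overlapping Ikbkg can enter its count. The non-oxidative enzymes Taldo1 and Tkt were 79.5 to 107 and 18.9 to 27.3 FPKM in PHx48, 69.5 to 79 and 14.8 to 25.3 in PHx24 and 70.7 to 89 and 19.9 to 24.1 in sham, with no call against sham. Under total counts Taldo1 was called higher at 48 h (0.41, adjusted p = 7.39e-05).

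Khk, ketohexokinase, which traps fructose in the liver (ENSMUSG00000029162, GRCm38 chromosome 5, 30921431 to 30931248), was between 90.1 and 161 FPKM with a median of 116 in PHx48, between 131 and 247 FPKM with a median of 175 in PHx24, and 185, 247, 234, 362 and 424 FPKM in sham. All 48 h libraries were below all sham libraries, while the 24 h libraries overlapped sham. The fall was to 0.421 of sham at 48 h (log2 fold change -1.25, SE 0.21, edgeR adjusted p = 4.67e-05). At 24 h it was also lower (log2 fold change -0.68, SE 0.21, edgeR adjusted p = 0.0143), which did not hold when sham 5 was left out (-0.53, adjusted p = 0.0595). Of the insulin signalling genes, Irs1, an adaptor of the insulin receptor (ENSMUSG00000055980, GRCm38 chromosome 1, 82233101 to 82291416), was between 0.83 and 2.28 FPKM with a median of 1.42 in PHx48, between 1.31 and 1.95 FPKM with a median of 1.69 in PHx24, and 1.43, 0.784, 0.796, 1.01 and 0.817 FPKM in sham. Only sham 1 among the sham libraries reached the PHx24 range. It rose at 24 h (log2 fold change 0.73, SE 0.24, edgeR adjusted p = 0.0201), but not when sham 2, 3 or 5 was left out (adjusted p = 0.054 to 0.0609). It was 0.55 at 48 h (adjusted p = 0.0774; 0.78, adjusted p = 0.026 without 6 libraries). Irs2, the adaptor that dominates in fasting, was between 1.8 and 5.95 FPKM with a median of 2.33 in PHx48, between 2.2 and 6.14 FPKM with a median of 3.06 in PHx24, and 7.15, 4.83, 2.72, 1.48 and 0.808 FPKM in sham. It was not called at 48 h or 24 h (-0.16 and 0.13), but without 6 libraries it was called higher at 24 h (1.16, adjusted p = 0.0405). With only sham 1, sham 2, PHx24 1 and PHx48 3 left out, Irs2 was also 1.16 at 24 h but was not called (edgeR adjusted p = 0.0596). Foxo1, the transcription factor that insulin keeps out of the nucleus, was 2.31 to 3.72 FPKM in PHx48, 2.01 to 3.32 in PHx24 and 2.49 to 3.53 in sham and was not called.

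Between 48 h and 24 h without etomoxir, 4 of the 6 gluconeogenic genes differed. Pck2 was higher at 48 h, and Pck1, Pcx and Slc37a4 were lower. Over all members 3 were higher and 5 lower in PHx48 than in PHx24 (20.5%, where 11.6% of all genes tested changed, 6.19% higher and 5.41% lower). Pck2 averaged 2.28 ± 0.593 FPKM in PHx48 and 0.739 ± 0.27 in PHx24 (SD, n = 7 each; log2 fold change 1.62, SE 0.25, edgeR adjusted p = 0.000101), with no overlap between the groups. Pcx averaged 87.5 ± 9.12 in PHx48 and 132 ± 14.1 in PHx24, again without overlap (log2 fold change -0.60, SE 0.091, edgeR adjusted p = 8.27e-05). Pck1 averaged 277 ± 177 in PHx48 and 675 ± 246 in PHx24 (log2 fold change -1.29, SE 0.32, edgeR adjusted p = 0.00875), with only PHx48 7 inside the 24 h range. Slc37a4 fell as well (log2 fold change -0.68, SE 0.21, edgeR adjusted p = 0.031), a call lost when any of 7 of the libraries compared was left out (PHx48 2, 3, 4 or 5 or PHx24 2, 4 or 5; adjusted p = 0.0516 to 0.0706). The Slc37a4 call was also lost under total counts (-0.58, edgeR adjusted p = 0.0547). With only sham 1, sham 2, PHx24 1 and PHx48 3 left out it was lost as well (-0.69, adjusted p = 0.0685), but not without 6 libraries (-0.69, adjusted p = 0.0231). The other calls were lower Gckr, given above, and lower Eno1 (-0.57, adjusted p = 0.00623), and higher Taldo1 (0.32, adjusted p = 0.00595) and Pgd (0.62, adjusted p = 0.0266). The Pgd call was lost without PHx48 3, PHx24 3 or PHx24 7 (adjusted p = 0.0506 to 0.0628). It was also lost with only sham 1, sham 2, PHx24 1 and PHx48 3 left out (0.53, edgeR adjusted p = 0.099), but not without 6 libraries (0.53, adjusted p = 0.00225). Pklr, Gys2, Pdk1, Pdk2 and Ldha differed by -0.008, 0.000, 0.050, 0.068 and 0.078 between the 2 times, with SE of 0.23, 0.19, 0.18, 0.20 and 0.12. Leaving out PHx24_ETO 2, which is in neither group and enters only through the shared estimate of spread, raised the counts to 6 higher and 9 lower, and leaving out 6 libraries gave 4 and 10 (14.5% of all genes, 7.52% higher and 7.01% lower). Scaled by total counts alone, 6 were higher and 4 lower.

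Etomoxir comparisons asked whether blocking fatty acid oxidation changes these mRNAs after resection. With edgeR no member passed at 48 h or 24 h. PHx48_ETO over PHx48 gave 0 of 39, where 0.21% of all genes passed (0.129% higher, 0.0808% lower). There 6 members had an unadjusted p under 0.05, beside 8.11% of all genes, and DESeq2 and both limma fits called 0. PHx24_ETO over PHx24 gave 0 of 39, where 2.9% of all genes passed (1.58% higher, 1.33% lower). There 5 members had an unadjusted p under 0.05, beside 19.4% of all genes, DESeq2 called 1 and both limma fits called 0. The difference between the etomoxir effects at the 2 times was called for 0 members by edgeR, DESeq2 and both limma fits. By edgeR 4 members had an unadjusted p under 0.05, beside 8.6% of all genes, and 0.0162% of all genes passed. Without 6 libraries edgeR again called 0 members in each, beside 0.38% of all genes at 48 h (0.145% higher, 0.234% lower), 1.24% at 24 h (0.671% higher, 0.566% lower) and 0 genes for the difference. The gene that DESeq2 called was Ldha at 24 h (log2 fold change 0.41, DESeq2 adjusted p = 0.0436). Ldha was 536, 458, 652 and 677 FPKM in PHx24_ETO, against between 374 and 517 FPKM with a median of 414 in PHx24 (edgeR 0.40, SE 0.14, adjusted p = 0.095). At 48 h it was 585, 545, 689.8 and 437 FPKM in PHx48_ETO, against between 378 and 535 FPKM with a median of 431 in PHx48 (0.29, SE 0.14, adjusted p = 0.599). In each pair the highest etomoxir libraries were above all libraries without it and the groups overlapped.

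The lowest adjusted p at 48 h was that of Gckr, at 20.1, 26.4, 21.3 and 32.5 FPKM in PHx48_ETO, against between 24 and 38 FPKM with a median of 34.1 in PHx48 (log2 fold change -0.38, SE 0.13, edgeR adjusted p = 0.351). Pck1 was 943, 809, 905 and 884 FPKM in PHx24_ETO, against between 508 and 1218 FPKM with a median of 626 in PHx24, and 225, 146, 184 and 296 in PHx48_ETO, against between 102 and 561 FPKM with a median of 235 in PHx48. At 24 h the 4 etomoxir libraries were above all PHx24 libraries except PHx24 2, and at 48 h they lay within the PHx48 range (0.38, SE 0.37, at 24 h; -0.38, SE 0.38, at 48 h). Pklr was 15.7, 15.8, 12.4 and 17.7 FPKM in PHx48_ETO and 17.4, 5.9, 20.04 and 21.1 in PHx24_ETO, with differences from the libraries without etomoxir of -0.12 (SE 0.28) and -0.079 (SE 0.28). Gys2 was 24.5, 23.1, 30.8 and 41.5 FPKM in PHx48_ETO, against between 13.8 and 27.1 FPKM with a median of 20.8 in PHx48, a difference of 0.48 (SE 0.22) that did not pass (adjusted p = 0.598). The SE of the etomoxir differences ran from 0.088 to 1.03 at 48 h (median 0.223) and from 0.089 to 0.953 at 24 h (median 0.227).

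PHx24_ETO 2 stood apart in the 24 h etomoxir group. It was the lowest of all 27 libraries for Pygl (9.27 FPKM, against 31.4 to 36.5 in the other PHx24_ETO libraries), Ppp1r3b (3.90, against 16.9 to 21.5), G6pc (15.7, against 96.5 to 165) and Pfkl (2.81), and the highest for Slc2a1 (12.03, against 5.19 to 5.76), Pgd (25.9, against 8.77 to 9.96) and Pdk4 (71.7, against 4.36 to 6.67). With it the 24 h etomoxir difference of Pdk4 was 1.18 and without it -0.90. The difference of Ldha without it was 0.50 (adjusted p = 0.0692), and 0 members were called.

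**Figure D5:**
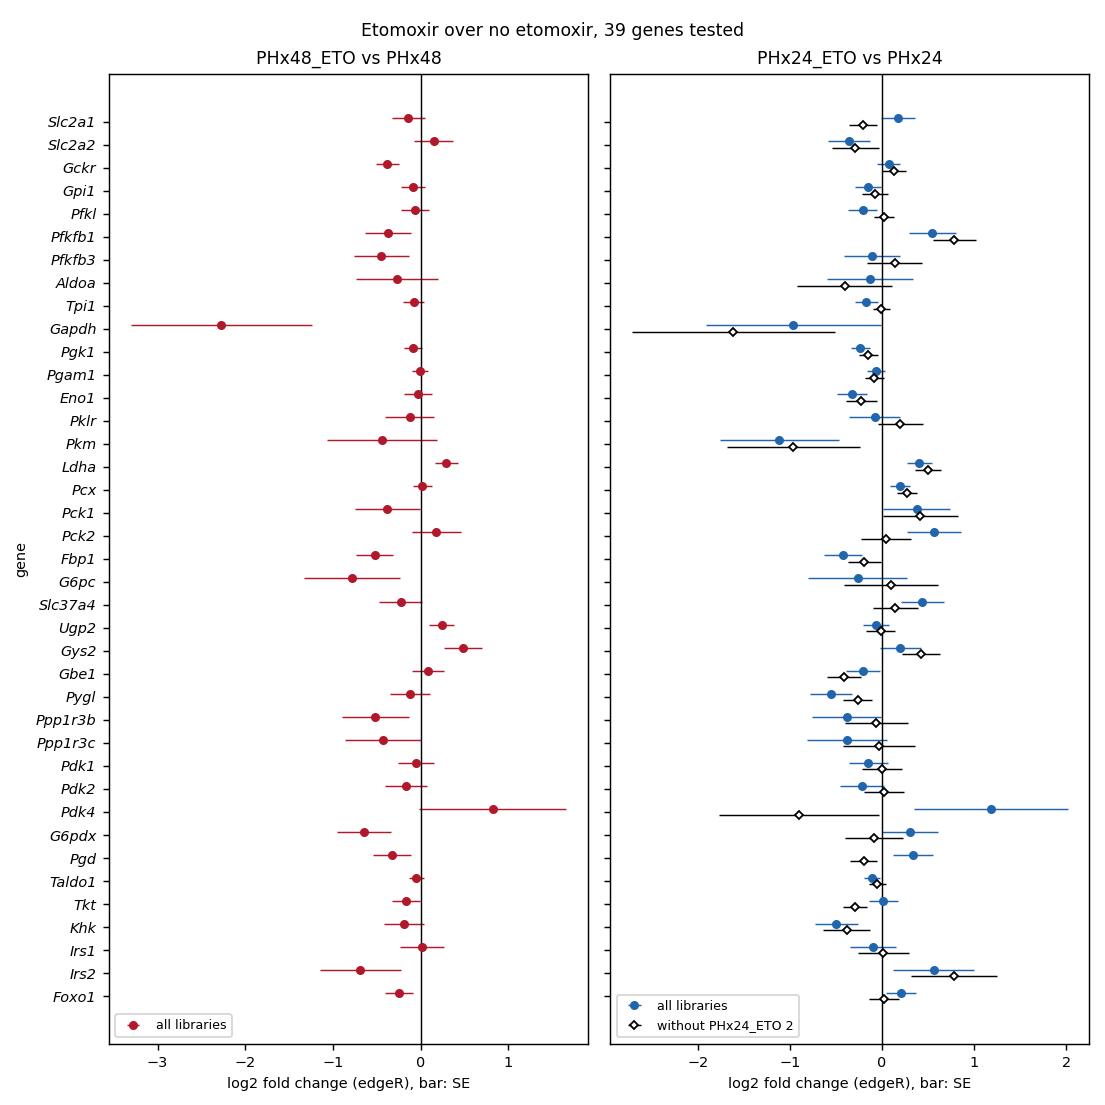
The log2 fold change of etomoxir over no etomoxir (horizontal axis, bars for the SE) of the 39 genes tested, at 48 h in the left panel and at 24 h in the right, where open diamonds leave out PHx24_ETO 2. None passed an edgeR adjusted p of 0.05, and Pdk4 at 24 h lies on opposite sides of 0 with and without that library.

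Another 84 genes of the same pathways, of which 71 were tested, were counted in the same fit: 8 rose and 19 fell at 48 h (38%), and 9 rose and 17 fell at 24 h (36.6%), beside 36.5% and 35% of all genes. Without 6 libraries the counts were 8 and 19 at 48 h and 10 and 18 at 24 h, where 33.8% and 33.5% of all genes changed. Of 12 transcription regulators, 2 rose and 5 fell at 48 h (58.3%, beside 36.5% of all genes) and 1 rose and 4 fell at 24 h (41.7%, beside 35%). Among them, Mlxipl, which encodes ChREBP, averaged 52.4 ± 11.7 FPKM in PHx48 and 44.2 ± 8.41 in PHx24 (SD, n = 7 each), against 85 ± 16.5 in sham (n = 5, log2 fold change -0.69, SE 0.22, edgeR adjusted p = 0.0164 at 48 h; log2 fold change -0.93, SE 0.22, edgeR adjusted p = 0.00191 at 24 h). Its glucose-responsive target Txnip, an inhibitor of glucose uptake, averaged 5.48 ± 1.62 in PHx48 and 5.9 ± 1.35 in PHx24, against 20.6 ± 10.01 in sham (-1.91 and -1.81, adjusted p = 1.26e-05 and 3.31e-05). Mlxipl, Txnip and Pklr were thus lower in the same comparisons, while Mlx, another of the 12 regulators, was called higher in both. A link between these genes was not tested. Srebf1, which encodes the SREBP-1 regulators of lipid synthesis, rose at 48 h (77.3 ± 19.4 FPKM, against 36.1 ± 13.3 in sham; 1.12, adjusted p = 0.00522), a call lost without 6 libraries (0.93, adjusted p = 0.0704).

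Of 3 transporters of monosaccharides and lactate that were tested, the fructose transporter Slc2a5 fell, at 0.544 ± 0.127 FPKM in PHx48 and 0.366 ± 0.191 in PHx24, against 1.5 ± 0.762 in sham (-1.44 and -2.02, adjusted p = 0.00221 and 0.000112). Slc16a1, the lactate and pyruvate transporter MCT1, rose, at 30.8 ± 3.89 in PHx48 and 25.8 ± 2.85 in PHx24, against 14.7 ± 4.15 in sham (1.09 and 0.84, adjusted p = 4.76e-06 and 0.00013). Slc2a8 fell by less at both times. Of the genes of fructose and galactose use, the galactose kinase Galk1 rose (0.71 at 48 h and 0.76 at 24 h, adjusted p = 5.24e-05 and 2.88e-05). Galm fell at 24 h (-0.59). Of 15 glycogen genes tested, 1 rose and 3 fell at 48 h (26.7%, beside 36.5% of all genes) and 1 rose and 2 fell at 24 h (20%, beside 35%). The called glycogen genes included the glycogen phosphatase laforin, Epm2a (-1.54 and -1.13, adjusted p = 0.000928 and 0.0113), and the brain-type phosphorylase Pygb, which averaged 2.88 ± 1.22 FPKM in PHx48 against 1.29 ± 0.429 in sham (1.17, adjusted p = 0.00061).

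Of 10 further glycolytic genes tested, 3 fell at 48 h (30%, beside 36.5% of all genes): Aldoc (-1.47, adjusted p = 2.78e-05), Pfkm (-1.87, adjusted p = 0.0124) and Eno3 (-2.79, adjusted p = 0.0204). Pfkm and Eno3, the muscle forms of phosphofructokinase and enolase, reached 77.5 and 161 FPKM in sham against medians of 5.78 and 4.04 there, and their calls were lost without 6 libraries (-0.30, adjusted p = 0.063 and -0.27, adjusted p = 0.435). Aldoc was then -1.61 (adjusted p = 7.57e-05). At 24 h 1 of the 10 rose (Adpgk, 0.34) and 1 fell (Aldoc, -0.86), 20% beside 35% of all genes. In the lists for gluconeogenesis (3 genes tested), pyruvate entry (7), the pentose phosphate pathway (6) and insulin signalling (9), the called genes changed by less than 2-fold. Among them was lower Insr, the insulin receptor (-0.56 and -0.49, adjusted p = 4.78e-05 and 0.000252). In PHx48 over PHx24, 3 of the 71 were higher and 6 lower (12.7%, beside 11.6% of all genes). Etomoxir at 24 h gave 1 higher and 1 lower by edgeR (2.82%, beside 2.9% of all genes). H6pd, the glucose-6-phosphate dehydrogenase of the endoplasmic reticulum, averaged 140.4 ± 26.2 FPKM in PHx24_ETO and 91.2 ± 6.51 in PHx24 (0.60, adjusted p = 0.0106; 0.63, adjusted p = 0.0347 without 6 libraries). Srebf1 averaged 16.7 ± 5.24 in PHx24_ETO and 44.9 ± 21.7 in PHx24 (-1.44, adjusted p = 0.0208; -1.36, adjusted p = 0.0891 without 6 libraries). At 48 h etomoxir gave 0 of 71 by edgeR, beside 0.21% of all genes, with 8 at an unadjusted p under 0.05, beside 8.11% of all genes. Without 6 libraries 1 was lower, where 0.38% of all genes were called (0.234% lower).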

How the data were processed

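RNA-seq of polyA RNA from mouse liver was measured in 27 libraries of 5 groups. Per the submitters' processing notes, CASAVA 1.8, fastp, HISAT2 2.0.5, featureCounts 1.5.0-p3, DESeq2 1.20.0 and the GRCm38 (mm10) build were used before deposit. Which step each tool did, and which annotation and strand option served for counting, is not given in the sources used here. Per the labels' protocols the library kit was NEBNext Ultra, which does not mark strand. Reads in overlapping genes therefore cannot be told apart by strand, and how they were counted is not given. The deposited values were raw counts per gene, with 14903757 to 18446372 counts a library. The authors also deposited FPKM, which were found to be counts per length and per library size, the library size being proportional to a median-of-ratios size factor.

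Raw counts were tested with the quasi-likelihood F test of edgeR 4.0.16 in R 4.3.3 (TMM scaling, all 27 libraries, 5 groups) over 12376 genes with at least 1 FPKM in at least 4 libraries. P-values were adjusted over all of these by Benjamini-Hochberg, and a gene was called at an adjusted p under 0.05. Standard errors were taken as the absolute log2 fold change over the root of the F statistic. The common biological coefficient of variation was 0.266. Levels are FPKM, given as mean ± SD or per library. The methods were tested on simulated data. Alternatives were RLE factors, total counts only, no filter, DESeq2 1.42.0, limma 3.58.1 on log2(FPKM + 1) and log2(FPKM + 0.1), only the groups compared, a replicate block, and leaving libraries out. Leaving out 6 libraries together was chosen after seeing the data.

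Genes named with full values were members called with a log2 fold change of at least 1 in either direction, members called for the difference between etomoxir effects, and the member of each role group with the smallest adjusted p against sham at each time. Other members described, among them Ldha, Pygl, Aldoa, Pkm, Hk2, Pdk4, G6pc, Gapdh, Slc2a2, Slc37a4 and Irs2, were chosen after their values were seen. Of the other pathway genes, the rule was to name those called with a log2 fold change of at least 1 in either direction. Others, among them Mlxipl, Galk1, Galm, Insr, Adpgk and H6pd, were named outside that rule. The members and lists were chosen with earlier results of these data known. One result for a gene outside the members is not reported here. Aldoa is listed under 2 identifiers and the tested entry was used.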

Additional observations from a re-analysis of the deposited data

Results flagged for a closer look

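A library whose gap to its nearest neighbour was large for its group (Dixon's 95% critical value) was found in 24 of 195 gene and group pairs, where chance gives about 1 in 20. Of these, 9 were PHx24_ETO 2, which was highest of its group for Slc2a1 (12.03 FPKM), Gapdh (15.62), Pdk4 (71.74) and Pgd (25.88) and lowest for Tpi1 (126.8), Pklr (5.902), Fbp1 (225.1), Pygl (9.265) and Ppp1r3b (3.897). Its skeletal muscle markers summed to 0.519 FPKM. Its adipocyte markers summed to 228 FPKM, with 2 of 8 genes at 1 FPKM or more, and their part in these values was not tested.

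Aldoa stood out at 86.47 FPKM in PHx48 3 and 269.3 in sham 1, and Pdk4 at 62.59 in sham 1, libraries in which 11 of 12 skeletal muscle genes reached 1 FPKM. The part of muscle RNA in these values was not tested. Gapdh was 26.64 FPKM in sham 5, and its near-identical copies make the value uncertain.

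The other highest values of their groups were Pfkfb1 in PHx24 7 (14.06 FPKM) and sham 5 (14.14), Pgam1 in PHx24 2 (100.8), Pck1 in PHx24 2 (1218), Gbe1 in PHx24 5 (22.73), Ppp1r3b in PHx24 7 (33.68) and Ppp1r3c in PHx48 2 (44.39). The other lowest values were Pgam1 in PHx24_ETO 3 (71.05 FPKM), Ppp1r3c in sham 3 (13.8), Pdk1 in PHx24 2 (2.548) and Tkt in PHx48 1 (18.89).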

How the results depend on the processing

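Counts of members called stayed within 1.5 times of those reported under RLE factors, no filter, limma with either pseudocount and the leaving out of sham 1, sham 2, PHx24 1 and PHx48 3 together. Total counts alone gave 10 higher in PHx48 than sham and 6 higher in PHx48 than PHx24. That scaling moved the median of all genes by 0.225 in PHx48 over sham, 0.105 in PHx24 over sham and 0.12 in PHx48 over PHx24 (log2). Fitting only the groups compared gave 16 called in PHx48 over PHx24 (5 higher, 11 lower), and leaving out 6 libraries gave 14 (10 lower). DESeq2 called 1 member in PHx24_ETO over PHx24, which was higher (Ldha). The cause of these shifts was not tested. Leaving out each library in turn gave 16 to 20 called in PHx48 over sham, 15 to 19 in PHx24 over sham, and 6 to 15 in PHx48 over PHx24 (2 to 6 higher and 4 to 9 lower). It gave 0 in both etomoxir comparisons and their difference.

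Without 6 libraries the sign turned and a member was called for Aldoa (0.51), Pdk4 (1.96) and Pkm (1.27) in PHx24 over sham and Pdk4 (1.65) in PHx48 over sham. Without the 4 libraries named above the signs turned likewise, but of these 4 only the Pkm difference was called (1.27), and Aldoa (adjusted p = 0.0857) and Pdk4 (0.0817 and, at 48 h, 0.137) were not. In both settings the sign also turned, with no call, for further members. Among these were G6pc at both times and Pkm, Irs2 and Gapdh in PHx48 over sham. Gbe1 and Ppp1r3c in PHx24 over sham were among them too. Sham then has 3 libraries.

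Replicate numbers are shared across groups in the labels but were not taken as pairs. Deviations of same-numbered libraries correlated at 0.026 to 0.655 for PHx24 and sham (4 of 5 pairs over 0.1) and at -0.232 to 0.167 for PHx48 and sham (1 of 5). The value of 0.655 was for PHx24 1 and sham 1, the libraries richest in muscle RNA. Correlations were -0.201 to 0.201 for PHx48 and PHx24 (2 of 7), -0.013 to 0.411 for PHx24_ETO and PHx24 (1 of 4) and -0.126 to 0.247 for PHx48_ETO and PHx48 (2 of 4). With the replicate number as a block, 7 members were higher and 11 lower in PHx48 over sham, 9 and 9 in PHx24 over sham, and 3 and 5 in PHx48 over PHx24, with 0 in the etomoxir comparisons.

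Pck2, Pfkfb3, Irs1 and G6pdx were at a few FPKM or less, where counting error is larger. The values are per gene, so isoform use cannot be read from them.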
